A study of Homo sapiens with 12 samples.

Results

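In HEK293T cells, snaR-A was targeted with 3 different siRNAs, and the mean of the 3 was compared with a scramble siRNA, with a view to the genes that moved the same way with each of them. All 12 libraries of the series entered the comparison. The scramble control, si-snaR-A#1, si-snaR-A#2 and #3 had 3 replicates each, every group had been transfected with 12.5 nM siRNA for 48 h, and poly(A)+ RNA was sequenced. A gene was counted as moving with all 3 siRNAs when each siRNA on its own differed from scramble, in the same direction, in edgeR's quasi-likelihood test at a Benjamini-Hochberg adjusted p under 0.05. Of 21999 genes tested, 1761 did so, 1136 of them higher and 625 lower.

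snaR-A is a short noncoding RNA of primates that RNA polymerase III transcribes, and several of its known protein partners act in RNA processing. An siRNA guides cleavage of RNAs that match it, and it can also lower mRNAs that match only the start of its guide strand. Several siRNAs against one RNA are therefore compared in such studies, since changes that all of them share are less tied to the sequence of any one. Here the siRNAs are not fully independent in sequence, because the target stretches listed for them overlap, and those of si-snaR-A#2 and #3 are shifted by no more than an end base. HEK293T is a line of transformed human embryonic kidney cells that carries the SV40 large T antigen, which inactivates p53 and RB, and each group is a transfection of this line. The study's methods call the replicates biological and have them processed on the same day, and whether each was a culture of its own is not given in the sources used here, so p-values measure the spread between these samples.

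Library totals lay between 120.4 and 180.1 M counts. No gene ID of the table has a symbol that begins with SNAR, so the targeted RNA, and with it the extent of its loss in these libraries, could not be read from the table. The first principal component (37.8% of variance) set the libraries of si-snaR-A#1 apart from the other 9. The second component, with 15.9%, set the scramble libraries apart from the other groups, except that a si-snaR-A#1 library lay at -6.4, between the scramble values (-30.3 to -21.9) and the remaining siRNA libraries (6 to 14.1). Genes of the mitochondrial genome took between 4.78% and 6.05% of counts in scramble and between 3.66% and 5.83% in the siRNA libraries. Of 12 markers of kidney epithelium and renal progenitors, 7 reached 1 CPM on average, among them CDH2, KRT18, CDH1, KRT8, PAX2 and EPCAM, and PAX8, LHX1, KRT19, CDH6 and CDH16 did not. Immune, endothelial and hepatocyte markers summed to between 0.0222 and 2.54 CPM in every library. Mesenchymal markers summed to 565 to 628 CPM in scramble and 547 to 785 CPM with the siRNAs, with VIM the most abundant of the 9. In bulk RNA, fewer cells that express a gene and less of its RNA per cell cannot be told apart.

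The mean of the 3 siRNAs differed from scramble for 7087 genes, 32.2% of those tested, with 15.6% higher and 16.6% lower. Taken one by one, si-snaR-A#1 changed 45.2% of genes, #2 changed 25.8% and #3 changed 29.4%. All 1761 genes that moved the same way with each siRNA were also called in the mean. The other 5326 genes called in the mean were a mixture. In 2877 of them, 2 siRNAs passed the test in the direction of the mean, in 2380 it was 1, in 69 it was none, and 413 had an siRNA called in the other direction. An siRNA that did not pass the test is not shown to leave a gene unchanged.

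The genes higher with all 3 siRNAs made up 5.16% of those tested and the genes lower with all 3 made up 2.84%. In the 14529 genes that averaged 1 CPM or more the shares were 7.81% and 3.88%, and they serve as the background for the gene groups below. The changes were small. In the mean of the siRNAs, the median log2 fold change was 0.37 for the rises and -0.47 for the falls, and 19 rises and 48 falls reached 1 in size. In 1066 of the 1136 rises, each of the 9 siRNA libraries lay above each of the 3 scramble libraries, and in 599 of the 625 falls each lay below. The split between rises and falls depended on the scaling. Rises were 64.5% of these genes with TMM, 69.7% with RLE and 52.7% with upper quartile scaling. When the 9 siRNA libraries were taken as 1 group, so that differences between siRNAs counted as error, 1561 genes were called in place of 7087.

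The largest rises that each siRNA gave were ranked by the smallest of the 3 log2 fold changes. PLEKHB2, a membrane protein of recycling endosomes, had 53.1, 53.7 and 54 CPM in scramble, and between 123 and 151 CPM with the siRNAs (median 135). In the mean this was 1.34 ± 0.04 (SE) as log2 fold change (edgeR adjusted p 7.7e-10), and 1.41, 1.40 and 1.22 with the 3 siRNAs in turn. The groups of PLEKHB2 did not come near each other, and those of the other rises of this rank did not overlap, as the rank required.

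TPM4, a tropomyosin that lines actin filaments, had 136, 131 and 146 CPM in scramble and 296 to 399 CPM with the siRNAs (median 384), which is 1.40 ± 0.04 (SE) as log2 fold change (edgeR adjusted p 9.2e-10). G3BP2, an RNA-binding protein that nucleates stress granules, rose from 137, 140 and 141 CPM to between 292 and 455 CPM (median 444), by 1.51 on the log2 scale (SE 0.04, edgeR adjusted p 2.6e-10). For both, the siRNAs differed in size but not in sign, since si-snaR-A#1 gave log2 fold changes of 1.20 and 1.16, against 1.49 to 1.69 with the other siRNAs. HABP4, an RNA-binding protein of the nucleus and stress granules, had 15.9, 16.3 and 16.9 CPM in scramble and 35.3 to 45.7 CPM with the siRNAs (median 37.2). NOLC1, a nucleolar phosphoprotein that accompanies snoRNPs, had 173, 171 and 175 CPM in scramble and 366 to 444 CPM with the siRNAs (median 392), which is 1.20 ± 0.04 (SE) as log2 fold change (edgeR adjusted p 7.7e-10).

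GANAB, the catalytic subunit of glucosidase II, which trims sugars on new glycoproteins in the endoplasmic reticulum (ER), rose from 218, 211 and 217 CPM to between 440 and 504 CPM (median 457). Its log2 fold changes with the siRNAs in turn were 1.19, 1.09 and 1.08. TOMM22, a receptor of the mitochondrial import pore, rose from 65.5, 68.3 and 70.8 CPM to between 123 and 160 CPM (median 141). The remaining rises of this rank were ZNF267, a zinc finger gene (log2 fold change 1.18 in the mean), CDK14, a cyclin-dependent kinase linked to Wnt signalling (1.09), SLC4A4, a sodium bicarbonate cotransporter (1.15), and STMND1, a stathmin domain gene at no more than 0.594 CPM in scramble (1.25). PLEKHB2, TPM4, G3BP2, HABP4 and CDK14 share exonic bases with another annotated gene, which could split their counts.

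**Figure D1:**
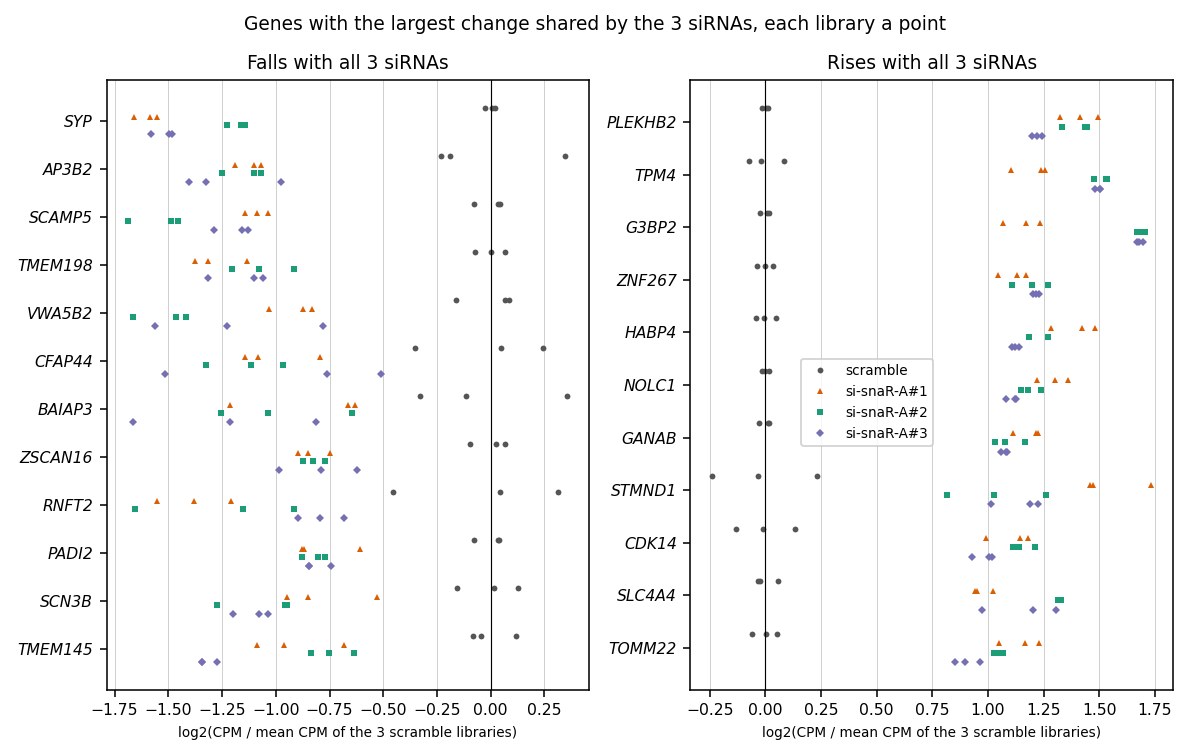
Genes with the largest change shared by the 3 siRNAs, falls on the left and rises on the right. Each point is a library, with 3 points for each group. It is placed at the log2 ratio of its CPM to the mean CPM of the 3 scramble libraries. Genes were chosen so that the 9 siRNA points lie on one side of the 3 scramble points. The scramble points of AP3B2, CFAP44, BAIAP3 and RNFT2 are the most spread out.

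Among the largest shared falls were SYP and SCAMP5, of the list for synaptic vesicles. SYP encodes synaptophysin, an abundant membrane protein of synaptic vesicles. It had 19.1, 18.7 and 19.3 CPM in scramble and 6.03 to 8.62 CPM with the siRNAs (median 6.74), which is -1.43 ± 0.04 (SE) as log2 fold change (edgeR adjusted p 7.7e-10). SCAMP5, a secretory carrier protein of synaptic vesicles, had 18.1, 19.6 and 19.7 CPM in scramble and 5.95 to 9.32 CPM with the siRNAs (median 8.57), which is -1.27 ± 0.06 (SE) as log2 fold change (edgeR adjusted p 1.5e-08). In both genes the highest siRNA library was well below the lowest scramble library.

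AP3B2, the neuronal beta subunit of the AP-3 adaptor that forms vesicles at endosomes, fell from 3.60, 2.41 and 2.48 CPM to between 1.07 and 1.44 CPM (median 1.32), with log2 fold changes of -1.12, -1.14 and -1.22. BAIAP3, a C2 domain protein of dense-core vesicle traffic, fell from 2.54, 1.83 and 1.58 CPM to between 0.625 and 1.28 CPM (median 0.967). SCN3B, an auxiliary beta subunit of voltage-gated sodium channels, fell from 2.22, 1.97 and 2.40 CPM to between 0.910 and 1.52 CPM (median 1.13). These 3 genes were low in scramble too, and the choice required that their groups did not overlap. The rest of the rank was TMEM198 (log2 fold change -1.16), VWA5B2 (-1.19), CFAP44, a cilium and flagellum protein (-1), RNFT2 (-1.13), ZSCAN16, a zinc finger gene (-0.81), PADI2, a peptidylarginine deiminase (-0.80), and TMEM145 (-0.98). PADI2 and ZSCAN16 fell by nearly the same amount with each siRNA, by -0.78, -0.82 and -0.81 for PADI2 and by -0.83, -0.82 and -0.79 for ZSCAN16. SYP, TMEM198, VWA5B2, CFAP44, BAIAP3 and ZSCAN16 share exonic bases with another annotated gene.

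Many neuronal genes carry an RE1 element near their start. It is the site of REST, a repressor that keeps such genes low outside neurons. The letters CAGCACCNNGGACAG, most of that element, were searched on both strands within 2000 bases either side of the annotated start of each tested protein-coding gene in hg38. They were found for 61 of 15075 genes (0.405%), for 10 of the 551 that fell with all 3 siRNAs (1.81%), and for none of the 1086 that rose. The search was added after the falls had been seen, and a match of letters does not show that a factor binds there. Shown here are 6 of the 10, with the matched letters in capitals and 7 reference bases on either side, read 5′ to 3′ on the strand that holds the match.

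SYP, chrX:49200119-49200147, minus strand, intron: cgcgctcCAGCACCGTGGACAGagcccgc
CELF3, chr1:151717097-151717125, minus strand, upstream: agtcttcCAGCACCGGGGACAGctccagc
SCN3B, chr11:123654063-123654091, plus strand, intron: cggcgctCAGCACCACGGACAGtcgcctc
INA, chr10:103279005-103279033, minus strand, intron: tcgagatCAGCACCGTGGACAGcgccccg
ACSL6, chr5:132012704-132012732, plus strand, upstream: aggactcCAGCACCGAGGACAGcgctcag
BEX2, chrX:103310019-103310047, plus strand, intron: aactgatCAGCACCGAGGACAGaggcccg

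The matches lay between -475 and 1881 bases from the gene start in these 6 genes, where a minus means before it, in introns or before the canonical transcript. INA, which encodes the neuronal intermediate filament internexin, had 12.1, 12.4 and 11.9 CPM in scramble and 3.46 to 9.02 CPM with the siRNAs (median 8.33), which is -0.90 ± 0.05 (SE) as log2 fold change (edgeR adjusted p 1.2e-07). ACSL6, a fatty acid-CoA ligase of brain, had 17.2, 15.8 and 14.2 CPM in scramble and 6.46 to 12.1 CPM with the siRNAs (median 9.15). Neither gene's groups overlapped, and in both si-snaR-A#1 gave the lowest levels, with log2 fold changes of -1.72 and -1.24. BEX2, a small protein of neurons, had 44.1, 46.5 and 46.8 CPM in scramble and 23.1 to 39.9 CPM with the siRNAs (median 33). CELF3, a splicing regulator of brain, was under 1 CPM in each group, at 0.428, 0.549 and 0.483 CPM in scramble and 0.0603 to 0.226 CPM with the siRNAs. The other 4 genes were TMEM121B, C3orf14, OGDHL and CCDC92B, with log2 fold changes in the mean from -0.92 to -0.29.

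The 61 genes with the RE1 letters did not move as one. In the mean of the siRNAs 23 were lower and 4 higher, against 16.6% and 15.6% of all genes tested. The 4 were the neurofilament gene NEFM (log2 fold change 0.45), HCN2 (0.36), NT5C2 (0.13) and IQSEC3 (0.53). The median of the 61 genes on the log2 scale was -0.10 with si-snaR-A#1, -0.495 with #2 and -0.42 with #3. For all protein-coding genes it was -0.03, -0.00 and 0.02. REST itself had 97.7, 95.8 and 94.9 CPM in scramble and 101 to 136 CPM with the siRNAs (median 109), with no overlap between the groups. REST was called higher with si-snaR-A#1 (log2 fold change 0.17) and with #3 (0.42). With #2 the log2 fold change was 0.11 (edgeR adjusted p 0.12), so REST was not among the genes that moved with all 3.

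**Figure D2:**
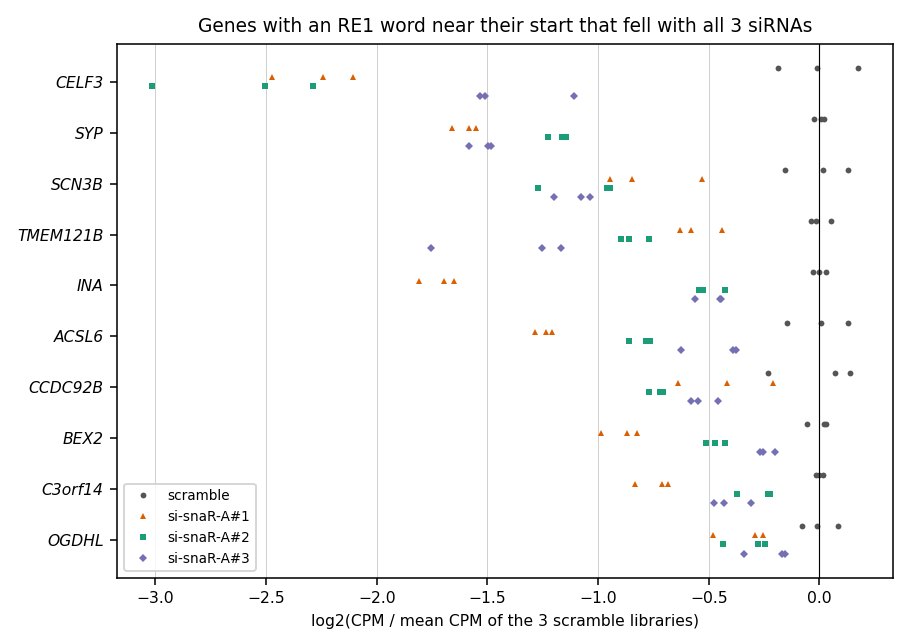
The 10 genes with the RE1 letters near their start that fell with all 3 siRNAs. Each point is a library, placed at the log2 ratio of its CPM to the mean CPM of the 3 scramble libraries; in 9 of the 10 genes all siRNA points lie below the scramble points, in CCDC92B they overlap, with 1.93 CPM in a scramble library and 1.96 CPM in one of si-snaR-A#1, and INA, ACSL6, BEX2 and C3orf14 were lowest with si-snaR-A#1.

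A list of 48 tested genes of synaptic vesicles and regulated exocytosis had 9 members lower with all 3 siRNAs (18.8%) and 1 higher. Beside SYP and SCAMP5 these were BSN and RIMS3, scaffold proteins of the presynaptic active zone, CPLX1 and SNAP23, of the SNARE fusion machinery, SV2A and SYT11, membrane proteins of secretory vesicles, and SCAMP4. The member that rose was CADPS2, a priming factor of dense-core vesicles, from 27.8, 29.1 and 29.2 CPM to between 31 and 36.4 CPM (median 33.5). A list of 42 genes of neuronal cytoskeleton and identity had 8 lower (19%) and 2 higher. The falls were INA, TUBB3, a neuronal beta-tubulin, RTN1, ENO2, a neuronal enolase, BEX1 and BEX2, and the RNA-binding proteins CELF3 and CELF4. The rises were UCHL1, a ubiquitin hydrolase, and HOMER1, a postsynaptic scaffold, by 0.21 and 0.22 on the log2 scale.

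TUBB3 had 5.21, 6.04 and 5.59 CPM in scramble and 3.05 to 4.13 CPM with the siRNAs (median 3.42). ENO2 had 46.6, 41 and 43.3 CPM in scramble and 24 to 37.8 CPM with the siRNAs (median 30.3). Both sets of libraries were apart, as the choice of named genes required. The same held for STMN3, a stathmin of neurons that binds tubulin, which fell from 22.6, 24.4 and 25.2 CPM to between 13 and 16.7 CPM (median 14.3). The 2 most abundant neuronal markers, NEFM and NEFL, neurofilament subunits, were called higher in the mean (log2 fold changes 0.45 and 0.15) and not with all 3 siRNAs, and the 8 neuronal markers together summed to 430 to 461 CPM in scramble and 457 to 679 CPM with the siRNAs. Of 70 voltage-gated and ligand-gated channel genes, 6 fell with all 3 siRNAs (8.57%) and 4 rose (5.71%). Beside SCN3B, the falls were CACNA2D2, CHRNA3, GABRD, GLRB and HCN3, and the rises included CACNB4, KCNC4 and KCNQ5.

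HOX genes are clustered transcription factor genes that set position along the body axis. Of 38 tested, 14 were lower with all 3 siRNAs, none were higher, and 22 were lower in the mean against 2 higher. In each of the 14, all 9 siRNA libraries lay below all 3 scramble libraries. HOXA held most of them, with 9 of 11 genes, followed by HOXB with 3 of 9 and HOXC with 2 of 9, and HOXD had none of 9. This family was 1 of 12 picked by symbol after the data were seen, and 12 of the 14 genes share exonic bases with a neighbour, so the genes of a cluster are not independent counts.

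HOXA10 had 102, 109 and 110 CPM in scramble and 57.5 to 75.4 CPM with the siRNAs (median 67.1), which is -0.69 ± 0.04 (SE) as log2 fold change (edgeR adjusted p 1.3e-07). HOXA9 had 128, 132 and 131 CPM in scramble and 58.4 to 106 CPM with the siRNAs (median 91.0), which is -0.65 ± 0.03 (SE) as log2 fold change (edgeR adjusted p 2.8e-08). HOXA9 fell most with si-snaR-A#1, by 1.14 on the log2 scale, while HOXA7 fell most with si-snaR-A#2 (-1.27) and HOXA4 with si-snaR-A#3 (-1.18). HOXA5 fell from 50.5, 49.3 and 50.7 CPM to between 27.4 and 41.2 CPM (median 38.2). HOXA13 was lower in the mean but gave between 54.9 and 134 CPM with the siRNAs against 99.8 to 108 CPM in scramble, so that its groups overlapped. Of the 14 HOX genes lower with all 3 siRNAs, 12 to 14 kept that call under the other scalings, filters and tests tried. When any library was left out, 11 to 13 kept it. The other HOX genes were not counted under these alternatives, so a gain could not be seen.

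**Figure D3:**
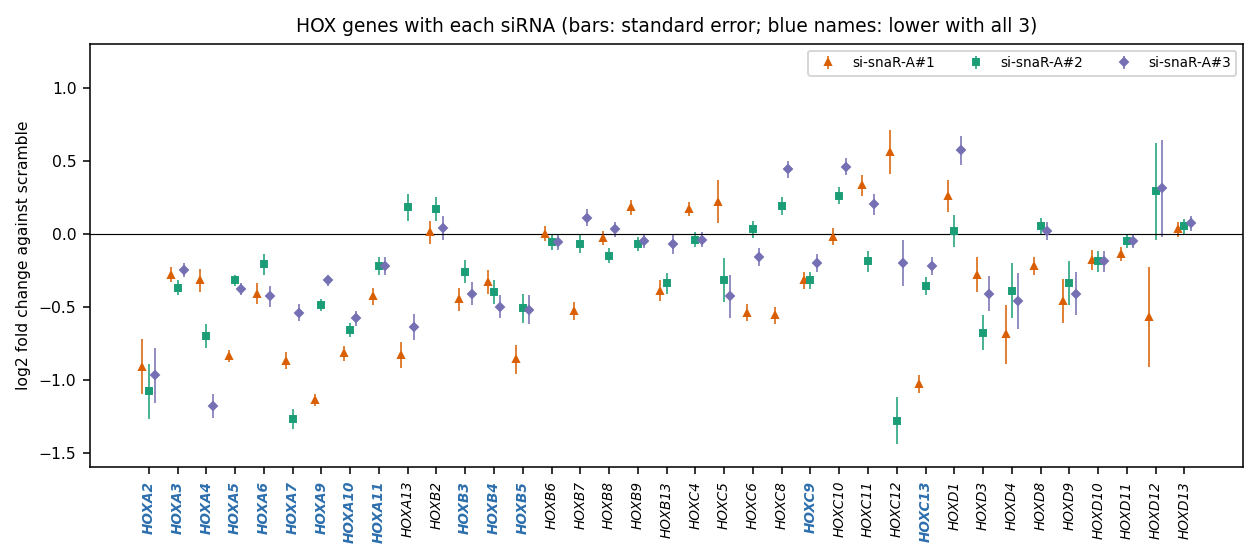
Log2 fold changes of 37 of the HOX genes with each siRNA against scramble, ordered by cluster and number. Points are the fitted values of the 3 siRNAs and bars their standard errors, and the names in blue are the 14 genes lower with all 3; HOXA2 to HOXA11 lie below 0 with each siRNA, and HOXD genes lie on both sides of 0.

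The other families picked by symbol were mixed. Of all tested protein-coding genes, 7.2% rose and 3.66% fell with all 3 siRNAs. Of 279 solute carriers 13 rose and 11 fell with all 3 siRNAs, of 194 TMEM genes 8 rose and 14 fell, and of 115 CCDC genes 4 rose and 6 fell. RAB GTPases (3 and 3 of 58), kinesins (3 and 2 of 37), RBM genes (3 and 4 of 38) and CFAP genes (1 and 3 of 40) had small counts. Their shares of falls were above that of all protein-coding genes. Their shares of rises were above it in kinesins and RBM genes and below it in RAB and CFAP genes. DEAD and DEAH box helicases had 4 and 1 of 49, ubiquitin-specific proteases 5 and 1 of 49 (12 higher and 15 lower in the mean), and protocadherins 3 and 0 of 44. None of 47 TRIM genes moved the same way with each siRNA.

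Pathways were described with 55 lists of genes in 9 themes, which held 2902 tested genes, 266 of them higher and 77 lower with all 3 siRNAs. The lists were not tested as sets, and their shares are read beside the 7.81% and 3.88% of genes at 1 CPM or more. That background is not matched for abundance. From 1 to 10 CPM 1.52% of genes rose and 4.50% fell, from 10 to 100 CPM 9.48% and 4.20%, and at 100 CPM or more 14% and 1.53%. A share of rises above 7.81% in a list of abundant genes can therefore be near that of other genes at its level. Members under 1 CPM stay in the list totals. Rises outnumbered falls in 42 lists, falls outnumbered rises in 7, and 6 had as many of each. Over all genes at 1 CPM or more rises outnumbered falls too, 1134 against 564. Another scaling turned this order in 2 lists, Hippo pathway and DNA repair, and many list counts are small and moved with the processing.

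**Figure D4:**
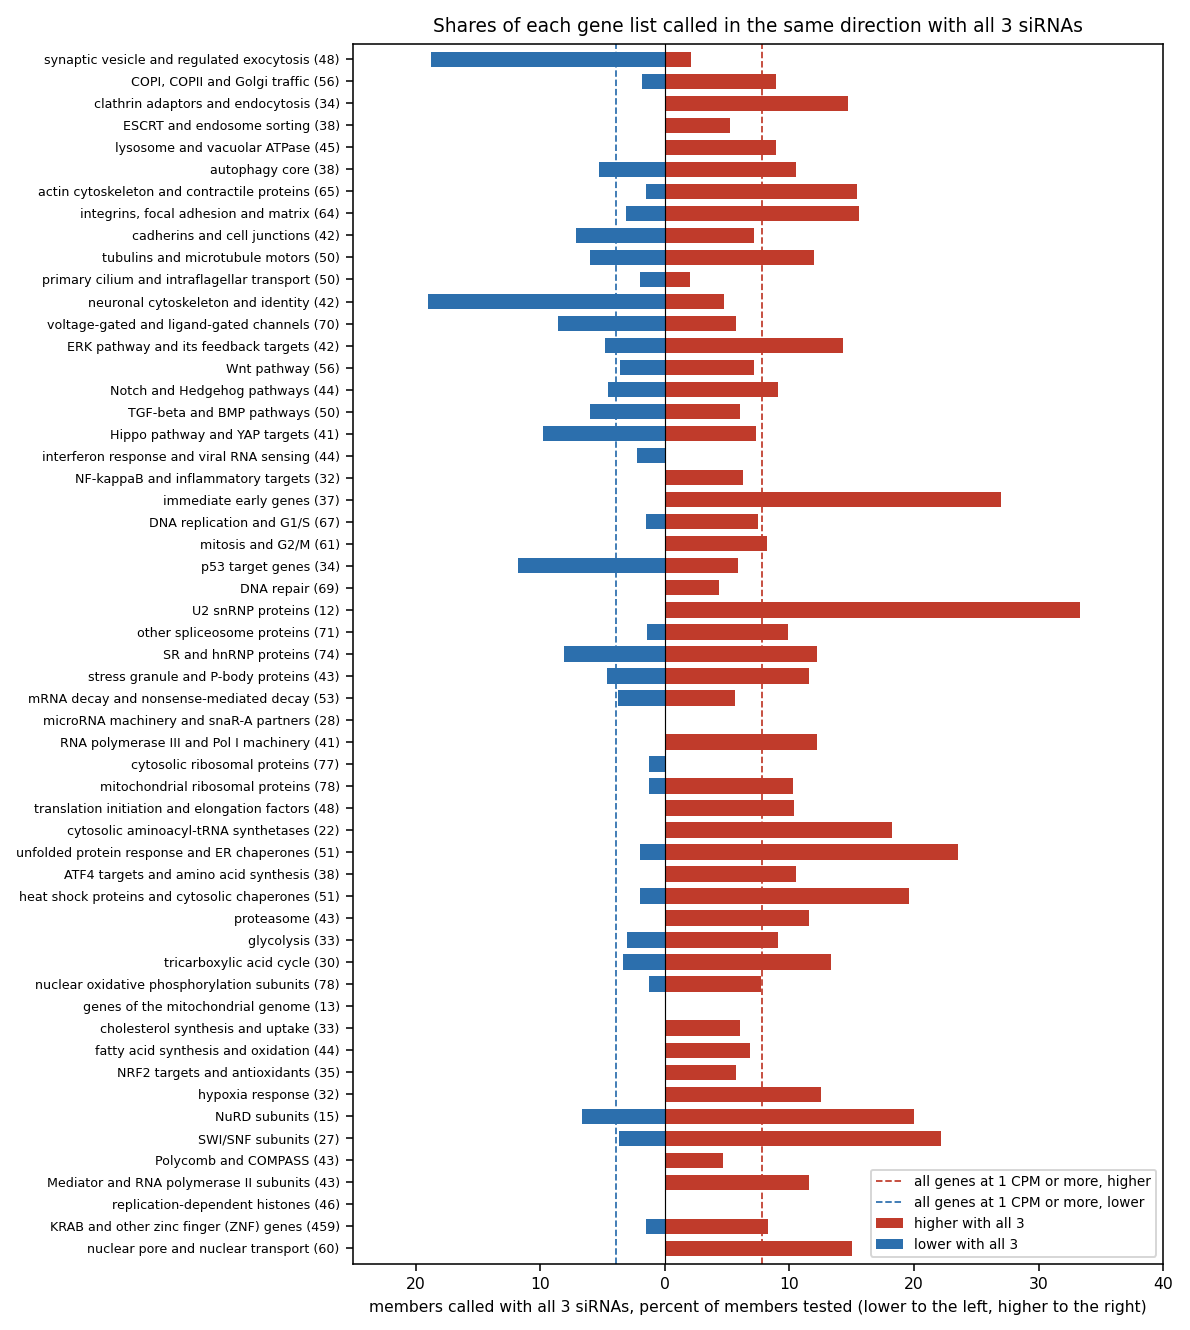
Percent of the tested members of each of the 55 gene lists that were higher (red, to the right) or lower (blue, to the left) with all 3 siRNAs, with the number tested in parentheses. The dashed lines are the shares of all genes at 1 CPM or more, 7.81% and 3.88%; U2 snRNP proteins and immediate early genes extend farthest to the right, and the neuronal and synaptic vesicle lists farthest to the left.

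Immediate early genes respond to growth factors and stress without new protein synthesis. Of 37 tested, 20 were higher and 1 lower in the mean, and 10 were higher with all 3 siRNAs (27%) and none lower. These were the transcription factors JUN, MYC, SRF, NR4A2 and NR4A3, the phosphatase DUSP1, the small GTPase RHOB, the pseudokinase TRIB1, the antiproliferative BTG2 and the mRNA decay factor ZFP36L2. JUN had 357, 338 and 356 CPM in scramble and 420 to 633 CPM with the siRNAs (median 498), which is 0.54 ± 0.04 (SE) as log2 fold change (edgeR adjusted p 4e-07). RHOB, which organises actin and endosome traffic, had 196, 192 and 209 CPM in scramble and 226 to 415 CPM with the siRNAs (median 325). Both rose most with si-snaR-A#2 and least with #1, in JUN by 0.31, 0.83 and 0.48 and in RHOB by 0.24, 1.00 and 0.65. SRF, the factor that binds CArG boxes in many of these genes, rose from 39.3, 39 and 41.6 CPM to between 45.7 and 66.5 CPM (median 47.5), most with si-snaR-A#1 (0.63). CArG boxes lay within 2000 bases of the start of 15 of the 37 (40.5%) and of 17% of all tested protein-coding genes, but of 13.9% of those that rose with all 3 siRNAs.

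The actin cytoskeleton list held TPM4, RHOB and SRF too. In the mean 21 of its 65 genes were higher and 12 lower, and with si-snaR-A#1 alone 21 were higher and 22 lower. With all 3 siRNAs 10 were higher (15.4%) and 1 lower. The others that rose were ACTB, a cytoplasmic actin, MYH9, the heavy chain of nonmuscle myosin, the formin DIAPH1, the bundling protein FSCN1, moesin (MSN), RAC1 and ROCK2, and MYL12B, a myosin light chain, fell from 90.5, 98.0 and 97.5 CPM to between 75.0 and 85.8 CPM (median 77.4). Of 64 genes of integrins, focal adhesions and matrix, 31 were higher in the mean, 10 higher with all 3 (15.6%) and 2 lower. The rises were the collagen chains COL4A1, COL4A2 and COL4A6 and the laminin chains LAMA4 and LAMB1, all of basement membranes, and COL5A2, COL6A1, PLOD1, ITGAV and ILK. COL4A1 had 24.1, 34 and 28.3 CPM in scramble and 37.0 to 65.7 CPM with the siRNAs (median 48.5). The spread was fairly wide in both groups, and the choice of named genes required that they did not overlap. LAMA4 had 22.6, 19.8 and 23.7 CPM in scramble and 31 to 37.5 CPM with the siRNAs (median 34.3), which is 0.63 ± 0.05 (SE) as log2 fold change (edgeR adjusted p 3e-06). COL1A1, a fibrillar collagen chain, and ITGA7, a laminin receptor, fell, by 0.47 and 0.69 on the log2 scale.

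Of cadherins and cell junction genes, 3 of 42 rose and 3 fell. CDH1, the epithelial E-cadherin, had 10.3, 10.5 and 10.9 CPM in scramble and 5.80 to 8.91 CPM with the siRNAs (median 7.73), which is -0.49 ± 0.05 (SE) as log2 fold change (edgeR adjusted p 1.1e-05). CTNNB1, beta-catenin of junctions and of Wnt signalling, had 400, 432 and 428 CPM in scramble and 338 to 382 CPM with the siRNAs (median 362). In both genes the groups were apart, which the choice of named genes required. The Wnt list had 4 rises, among them AXIN1, part of the complex that degrades beta-catenin (log2 fold change 0.51), and ROR1, a Wnt5a receptor (0.50), and 2 falls of 56. Tubulins and microtubule motors had 6 rises and 3 falls of 50, with BICD2, a dynein adaptor, from 36.8, 34.3 and 36 CPM to between 45.3 and 69.3 CPM (median 60.4). TUBA1C rose in the same list by 0.55 on the log2 scale while TUBB3 and STMN3 fell.

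In the list for protein folding in the ER, 29 of 51 genes were higher in the mean, 12 rose with all 3 siRNAs (23.5%) and 1 fell. It showed how the mean and the shared changes differed. The median of the list was 0.23 with si-snaR-A#2 and 0.27 with #3, but -0.08 with si-snaR-A#1. The 12 were the lectin chaperones CALR and CANX, the protein disulfide isomerases P4HB and PDIA6, the oxidase ERO1A that recharges them, MANF and SDF2L1, the oligosaccharyltransferase subunits DDOST and STT3A, the signal peptidase subunit SPCS3, and ATF6 and XBP1, both transcription factors of the unfolded protein response. CALR had 374, 376 and 396 CPM in scramble and 490 to 685 CPM with the siRNAs (median 670), which is 0.70 ± 0.04 (SE) as log2 fold change (edgeR adjusted p 1e-07). CANX had 89.0, 100 and 91.1 CPM in scramble and 123 to 163 CPM with the siRNAs (median 147). Every siRNA library exceeded every scramble library for both, as the choice of named genes required. EDEM1, a mannosidase-like factor of ER-associated degradation, lay apart in the reverse direction, from 104, 95.7 and 93.2 CPM to between 61.9 and 85.6 CPM.

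ATF6 and XBP1 act at the ER stress response element, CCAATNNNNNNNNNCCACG. Of the 51 genes of the list 7 held it within 2000 bases of their start (13.7%), beside 44 of 15075 protein-coding genes (0.292%). Of the genes that rose with all 3 siRNAs 4 of 1086 held it (0.368%), which is close to the background share, and of those that fell none. The 4 were CALR, XBP1, EIF2A and ZNF17. HSPA5 and HSP90B1, described below, held the element too and did not rise with all 3 siRNAs. The matches of CALR and XBP1 are given, each with 5 reference bases on either side.

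CALR, chr19:12938379-12938407, minus strand, upstream: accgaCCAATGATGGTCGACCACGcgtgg
XBP1, chr22:28800598-28800626, minus strand, upstream: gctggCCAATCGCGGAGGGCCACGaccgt

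XBP1 had 106, 104 and 112 CPM in scramble and 113 to 157 CPM with the siRNAs (median 134), and its log2 fold changes were 0.14, 0.31 and 0.47. ATF6 had 76.9, 81.4 and 76.4 CPM in scramble and 82.6 to 112 CPM with the siRNAs (median 106), with log2 fold changes of 0.16, 0.45 and 0.48. HSPA5, the chief Hsp70 chaperone of the ER, went in unlike directions. It had 841 ± 66.2 CPM in scramble, 551 ± 28.4 with si-snaR-A#1, 1350 ± 50.7 with #2 and 1470 ± 43.0 with #3 (SD, n = 3 each). The mean of the siRNAs, 0.29 ± 0.05 (SE) as log2 fold change (edgeR adjusted p 0.00055), lay between unlike values and described no siRNA. HSP90B1, the Hsp90 of the ER, had a similar pattern, with log2 fold changes of 0.47 and 0.42 with si-snaR-A#2 and #3 and -0.11 with #1 (edgeR adjusted p 0.055).

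Of 51 cytosolic chaperones and heat shock genes 10 were higher with all 3 siRNAs (19.6%) and 1 lower, 12 were lower with si-snaR-A#1, and the list medians with the siRNAs in turn were 0.05, 0.09 and 0.20. The rises were HSP90AA1 and the Hsp90 cochaperones AHSA1, CDC37, FKBP4 and FKBP5, the chaperonin subunits CCT5 and CCT6A, the mitochondrial Hsp70 HSPA9, the small heat shock protein HSPB1 and the transcription factor HSF2. AHSA1, the activator of the Hsp90 ATPase, had 127, 129 and 134 CPM in scramble and 177 to 212 CPM with the siRNAs (median 201), with log2 fold changes of 0.60, 0.50 and 0.67. FKBP5 had 86.5, 92.8 and 90.9 CPM in scramble and 126 to 153 CPM with the siRNAs (median 140). DNAJB2, an Hsp40 rich in neurons, had 26.5, 27.6 and 28 CPM in scramble and 18.8 to 20.6 CPM with the siRNAs (median 19.4), and fell by like amounts with each, -0.53, -0.44 and -0.48. Heat shock elements (GAANNTTCNNGAA) were near 15 of the 51 starts (29.4%), 5% of all and 4.42% of those that rose with all 3 siRNAs.

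In protein synthesis, 4 of 22 genes of cytosolic aminoacyl-tRNA synthetases were higher with all 3 siRNAs (18.2%) and none lower: KARS1, VARS1 and HARS1, which charge tRNAs with lysine, valine and histidine, and the scaffold AIMP1. KARS1 had 161, 174 and 181 CPM in scramble and 246 to 287 CPM with the siRNAs (median 255), which is 0.59 ± 0.04 (SE) as log2 fold change (edgeR adjusted p 9.4e-07). Of 48 initiation and elongation factors 5 rose, 3 of them subunits of eIF3 (EIF3B, EIF3C and EIF3F), with EIF4A1 and EIF2A, and none fell. Cytosolic ribosomal protein genes had 0 of 77 higher and 1 lower with all 3 siRNAs (5 lower with upper quartile scaling), and with si-snaR-A#1 alone 46 were lower and none higher. The fall was RPS7, from 939, 980 and 972 CPM to between 818 and 875 CPM (median 857). Mitochondrial ribosomal protein genes had 8 rises (10.3%) and 1 fall of 78. In that list MRPS34 rose from 57.5, 60.6 and 64.4 CPM to between 80.2 and 95.9 CPM (median 89.8), and MRPS17 fell from 28.8, 31.7 and 30.1 CPM to between 16.5 and 25.2 CPM (median 18).

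The U2 snRNP, which recognises the branch point of introns, had the largest share of rises, 4 of 12 (33.3%), with 7 higher and none lower in the mean. They were SF3B2, SF3A3, PHF5A and SNRPA1. PHF5A, which contacts the branch point adenosine in SF3B, had 39.5, 42.3 and 45.3 CPM in scramble and 57.3 to 69.2 CPM with the siRNAs (median 63.7), which is 0.56 ± 0.04 (SE) as log2 fold change (edgeR adjusted p 7.5e-07). SF3B2 rose by 0.51, 0.44 and 0.44 with the siRNAs in turn. In a list of 12, 1 member is 8.33% of it, so the share is coarse. Of 71 other spliceosome proteins 7 rose and 1 fell, and with upper quartile scaling 5 rose and 5 fell. SART1, of the U4/U6.U5 tri-snRNP, rose from 43.6, 43.8 and 45.4 CPM to between 62.3 and 75.1 CPM (median 69.6). PRPF31, which holds U4 and U6 together, rose by 0.44 on the log2 scale. U2AF2, which binds the polypyrimidine tract ahead of U2, fell from 196, 193 and 193 CPM to between 157 and 178 CPM (median 168).

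SR and hnRNP proteins, the regulators of splice site choice, had 9 of 74 higher and 6 lower, and 8 and 8 with upper quartile scaling. MBNL1, a regulator of developmental splicing, rose from 76.6, 79.9 and 73.5 CPM to between 96.7 and 142 CPM (median 104), and TAF15, an RNA-binding protein of the FET family, rose by 0.50 on the log2 scale. CELF2 fell from 47.8, 49.7 and 47.1 CPM to between 25.7 and 31.2 CPM (median 28.9). The groups of MBNL1 and CELF2 were apart, as the choice of named genes required. Stress granule and P-body proteins had 5 rises, G3BP2, MCRIP2, DDX3X, EDC3 and PATL1, and 2 falls of 43, TIA1 and LSM14B. Of 53 mRNA decay genes 3 rose and 2 fell, with GSPT1, the release factor eRF3, up by 0.24 and UPF3B down by 0.17 on the log2 scale. None of the 28 genes of microRNA machinery and known snaR-A partners moved the same way with each siRNA (2 rose with DESeq2), and 6 were higher and 9 lower in the mean. Of all genes at 1 CPM or more 7.81% rose and 3.88% fell with all 3 siRNAs. At such shares a list of 28 would hold few, so the absence is not read as a result.

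The list for RNA polymerases I and III had 5 rises (12.2%) and no falls of 41. POLR1B, the second largest subunit of RNA polymerase I, rose from 72.3, 77.0 and 71.1 CPM to between 98.1 and 157 CPM (median 116), and GTF3A, the 5S rRNA gene factor TFIIIA, from 47.3, 48.4 and 50.2 CPM to between 52.8 and 89.7 CPM (median 72.1). UBTF, MAF1 and GTF3C6 were the others. RNA polymerase II and Mediator had 5 rises of 43 (11.6%). POLR2D rose from 70.8, 72.8 and 71.9 CPM to between 103 and 125 CPM (median 119), and MED11 from 9.69, 10.0 and 11 CPM to between 16.8 and 20.3 CPM (median 17.7). Log2 fold changes of these 2 were alike with the 3 siRNAs, 0.61 to 0.77 for POLR2D and 0.76 to 0.93 for MED11.

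The SWI/SNF list had 9 of 27 higher and 5 lower in the mean, with a median log2 fold change of 0.0. With all 3 siRNAs 6 were higher (22.2%) and 1 lower. Both ATPases, SMARCA4 and SMARCA2, were among the rises, beside SMARCE1, SMARCD2, BCL7A and PHF10. SMARCE1 rose from 138, 148 and 147 CPM to between 160 and 188 CPM (median 181). SMARCD3, a subunit of heart and neural complexes, fell from 34.7, 31.1 and 30.7 CPM to between 20.4 and 27.6 CPM (median 24.4). NuRD had 3 rises, HDAC1, MTA1 and RBBP7, and 1 fall, MBD3, of 15. HDAC1, its deacetylase, rose from 124, 120 and 120 CPM to between 142 and 184 CPM (median 173). Polycomb and COMPASS genes had 2 rises of 43, CBX2 and PCGF6, both of PRC1. Zinc finger (ZNF) genes, most of them KRAB repressors, had 38 of 459 higher (8.28%), near the background, and 7 lower (1.53%), which became 15 with upper quartile scaling and 13 with a filter at 1 CPM. ZNF616 rose from 8.62, 7.67 and 8.61 CPM to between 12.3 and 18.8 CPM (median 16.3), and ZNF503 fell from 119, 122 and 122 CPM to between 48.0 and 104 CPM (median 99.6). Zinc finger genes have close paralogues, and estimated counts can be shared out wrongly between them.

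Nuclear transport had 26 of 60 higher in the mean, 9 higher with all 3 siRNAs (15%) and none lower. They were the pore proteins NUP155, NUP188, NUP205, NUP42 and NDC1, the mRNA export factor GLE1, and the import receptors KPNA6, IPO9 and IPO11. KPNA6, an importin alpha, had 120, 118 and 120 CPM in scramble and 171 to 199 CPM with the siRNAs (median 180), which is 0.61 ± 0.04 (SE) as log2 fold change (edgeR adjusted p 1.7e-07). GLE1 had 54.6, 55.5 and 56.2 CPM in scramble and 72.4 to 91.3 CPM with the siRNAs (median 80.3). Neither gene's groups overlapped, as the choice of named genes required.

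Lists of constitutive traffic had between 5.26% and 14.7% of members higher with all 3 siRNAs. Clathrin adaptors and endocytosis had 5 of 34 higher (14.7%) and none lower, namely AP2A1, AP2B1, AP3D1, CLTB and EPN1. AP2A1, of the plasma membrane adaptor, rose from 59.8, 61.3 and 65.7 CPM to between 80.0 and 94.4 CPM (median 86.6). AP3D1, the delta subunit of AP-3, rose from 117, 105 and 110 CPM to between 137 and 155 CPM (median 143), while the neuronal subunit AP3B2 of the same adaptor fell. COPI, COPII and Golgi traffic had 5 rises (8.93%) and 1 fall of 56, ARF3, by 0.38 on the log2 scale, and with si-snaR-A#1 alone 28 of the 56 were lower and 6 higher. Lysosome and vacuolar ATPase genes had 4 rises of 45 and no falls, ESCRT genes 2 of 38 and no falls, and autophagy genes 4 rises and 2 falls of 38. BECN1, of the autophagy initiation complex, rose from 39.8, 36.1 and 40.8 CPM to between 48.6 and 61.8 CPM (median 54), and OPTN, an autophagy receptor, fell from 45.3, 46.9 and 46.3 CPM to between 28.2 and 42.6 CPM (median 39). Primary cilium genes had 1 rise and 1 fall of 50 (4 falls with upper quartile scaling), and the rise was IFT57.

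Signalling lists were mixed. The ERK list had 6 of 42 higher (14.3%), BRAF, NRAS, PTPN11, RPS6KA3, FGFR3 and FGFR4, and 2 lower, ETV1 and HRAS. ETV1, an ETS factor that ERK activates, had 4.65, 5.02 and 4.42 CPM in scramble and 0.714 to 3.33 CPM with the siRNAs (median 2.94), and si-snaR-A#1 gave -2.37 against -0.56 and -0.58. HRAS had 8.17, 8.38 and 8.61 CPM in scramble and 4.90 to 6.60 CPM with the siRNAs (median 5.51), while its relative NRAS rose. Notch and Hedgehog genes had 4 rises and 2 falls of 44. The Notch ligand DLL1 rose from 19.6, 22.7 and 21.5 CPM to between 27.1 and 50.0 CPM (median 31.5), and PSEN2, a catalytic subunit of gamma-secretase, fell from 20.5, 20.8 and 20.9 CPM to between 9.49 and 14.4 CPM (median 10.9). PTCH1, the Hedgehog receptor, fell by 0.43 and HHIP, which sequesters the ligand, rose by 0.57 on the log2 scale. Hippo genes had 10 of 41 higher and 11 lower in the mean. With all 3 siRNAs there were 3 rises, AMOTL1, LATS2 and NF2, and 4 falls, WWTR1 (TAZ), AXL, GADD45A and VGLL4. With RLE scaling these counts were 3 and 2, and with DESeq2 5 and 2.

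TGF-beta and BMP genes had 21 of 50 lower and 6 higher in the mean but 3 and 3 with all 3 siRNAs. The falls were BMP2, ID2, a target of BMP signalling, and the inhibitory SMAD6. ID2 had 302, 314 and 330 CPM in scramble and 133 to 257 CPM with the siRNAs (median 237), most with si-snaR-A#1 (-1.23). SMAD6 had 40.7, 41 and 39.4 CPM in scramble and 23 to 30.6 CPM with the siRNAs (median 26.2). Both were clear of scramble in every library, as the choice of named genes required. Targets of p53 had 2 rises and 4 falls of 34, in a line whose p53 is bound by large T antigen. TP53INP1, an inducer of apoptosis and autophagy, fell from 42.0, 40.2 and 39 CPM to between 17.3 and 27.3 CPM (median 22.8), and MDM2, the ligase for p53, from 209, 202 and 187 CPM to between 141 and 175 CPM (median 145). PMAIP1 and GADD45A were the other falls, and BTG2 and SUSD6 the rises. Interferon genes had 14 of 44 lower in the mean and 1 with all 3, OAS3, a sensor of double-stranded RNA, from 7.35, 7.59 and 7 CPM to between 2.45 and 6.03 CPM (median 5.34). Of 32 NF-kappaB targets 2 rose and none fell.

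In the cell cycle lists the share of rises was near the background for DNA replication (7.46%) and mitosis (8.20%). It was below the background for DNA repair (4.35%), and the shares of falls were below it in all 3 lists. The siRNAs went in unlike directions. Of replication genes 34 were lower and 14 higher with si-snaR-A#1, against 4 and 26 with #2 and 6 and 22 with #3. Of repair genes it was 28 and 9, 8 and 20, and 6 and 16. DNA replication had 5 rises and 1 fall of 67, mitosis 5 rises of 61, and DNA repair 3 rises of 69 (3 rises and 4 falls with upper quartile scaling). RRM2, of the ribonucleotide reductase, rose from 256, 251 and 270 CPM to between 296 and 414 CPM (median 382), and CENPF, a kinetochore protein of G2 and mitosis, from 268, 248 and 225 CPM to between 295 and 370 CPM (median 332). CCND2, cyclin D2, fell from 262, 244 and 242 CPM to between 174 and 235 CPM (median 194). CCND2 was the fall of the replication list.

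In metabolism, 4 of 30 genes of the tricarboxylic acid cycle rose (13.3%), among them CS, IDH3A and SDHB, and PDHX, a pyruvate dehydrogenase component, fell from 77.2, 84.9 and 82.9 CPM to between 46.6 and 72.6 CPM (median 48.1). SDHB, which is also a subunit of complex II, rose from 75.0, 74.8 and 82.1 CPM to between 106 and 119 CPM (median 116), with log2 fold changes of 0.55, 0.58 and 0.58. Nuclear genes of oxidative phosphorylation had 6 rises and 1 fall of 78, with NDUFB6, NDUFB10, ATP5PB and CYCS among the rises. None of the 13 genes of the mitochondrial genome moved with all 3 siRNAs, too few genes to set against the 7.81% and 3.88% of genes at 1 CPM or more. PRDX4, the peroxiredoxin of the ER, had 55.6, 56.6 and 59.1 CPM in scramble and 102 to 118 CPM with the siRNAs (median 113), which is 0.97 ± 0.04 (SE) as log2 fold change (edgeR adjusted p 4.9e-09), the largest in its list of NRF2 targets and antioxidants, where 2 of 35 rose. Of ATF4 targets and amino acid synthesis 18 of 38 were higher in the mean and 4 with all 3, MTHFD1, SHMT2, PYCR1 and the glutamine transporter SLC1A5, which rose by 0.46 with each siRNA. Of 33 genes of cholesterol synthesis and uptake 2 rose, LSS, the lanosterol synthase, among them. Fatty acid genes had 3 rises of 44 (FASN, ACLY and ACSL3), glycolysis 3 rises and 1 fall of 33, and the proteasome 5 rises of 43. The hypoxia list had 16 of 32 lower in the mean and 7 higher, yet the 4 that moved with all 3 siRNAs all rose. CA12, a carbonic anhydrase, was one, from 27.9, 27.5 and 28.9 CPM to between 35.6 and 60.5 CPM (median 40.7). None of 46 replication-dependent histone genes moved with all 3 siRNAs in this poly(A)+ RNA, beside 7.81% higher and 3.88% lower of genes at 1 CPM or more. With si-snaR-A#1 10 of them were higher and 2 lower, with #2 5 and 0, and with #3 0 and 5.

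By gene class, 1086 of the 1136 rises (7.20% of 15075 protein-coding genes tested) and 551 of the 625 falls (3.66%) were protein-coding. Long noncoding RNAs had 8 higher (0.169%) and 50 lower (1.06%) of 4728. At 1 CPM or more they had 7 higher (0.567%) and 38 lower (3.08%) of 1235, so that their share of falls was near the 3.88% of all genes at that level and their share of rises below the 7.81%. Among the rule's lncRNAs the falls were in RUNDC3A-AS1, from 6.43, 4.35 and 3.69 CPM to between 1.84 and 3.42 CPM (median 2.44), ID2-AS1, from 6.25, 6.73 and 6.51 CPM to between 2.56 and 4.77 CPM (median 3.41), and SMG1P7 (log2 fold change -0.86). ID2-AS1 lies beside ID2, which fell too, and counts of an antisense RNA and its partner can be told apart only where the counting used strand. The library kit keeps strand, and the setting of the counting is not given in the sources used here. The rises were KLRK1-AS1 (0.56) and BOLA3-DT (0.36). None of 476 processed pseudogenes and none of 26 snoRNA genes moved the same way with each siRNA, beside 5.16% higher and 2.84% lower of all genes tested. Of all genes under 1 CPM only 0.0268% rose and 0.817% fell, and these classes were not matched for abundance. The paper states that its mRNA libraries did not capture RNAs without poly(A).

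Rises had a median of 54.7 CPM over the 12 libraries and falls 14.2 CPM, beside 7.02 CPM for all genes tested. From 1 to 10 CPM 1.52% of genes rose and 4.50% fell with all 3 siRNAs, from 10 to 100 CPM 9.48% rose and 4.20% fell, and at 100 CPM or more 14% rose and 1.53% fell. Among protein-coding genes the median gene spanned 41086 bp for the rises, 27413 bp for the falls and 34678 bp for all tested, with 10, 8 and 9 exons and transcripts of 3960, 3251 and 3352 bases. Within 10 to 100 CPM, where all 3 sets are more alike in abundance (medians of 42.9, 29.6 and 35.4 CPM), the gene lengths were 40652, 29960 and 38272 bp and the exon counts 9, 8 and 9. GC content of transcripts differed little, with medians of 48.8% for the rises, 50.1% for the falls and 48.7% for all protein-coding genes, and within 10 to 100 CPM it was 49.9%, 47.9% and 48.0%. By chromosome, between 5.38% and 8.61% of protein-coding genes rose and between 1.92% and 5.97% fell.

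Even genes that moved the same way with each siRNA often moved by unlike amounts. Pairs of siRNAs were tested against each other without the scramble libraries. Between si-snaR-A#1 and #2, 574 of the 1136 rises (50.5%) and 264 of the 625 falls (42.2%) differed, beside 46.7% of all genes tested. Between si-snaR-A#1 and #3 it was 577 rises (50.8%) and 295 falls (47.2%), beside 48.6%. Between si-snaR-A#2 and #3 it was 212 rises (18.7%) and 138 falls (22.1%), beside 15.6%. No pair differed in 397 of the rises and 254 of the falls. That a pair was not called does not show that the siRNAs acted alike.

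Of the 2448 genes called with all 3 siRNAs, 687 did not have the same direction, and in 593 of these si-snaR-A#1 opposed the others. The 4 with the largest difference at 5 CPM or more were ERAP2, an aminopeptidase of the ER that trims peptides for MHC class I, PCK1, a gluconeogenic enzyme, MARCKS, a membrane-bound actin regulator, and RAP1A, a small GTPase of cell adhesion. ERAP2 had 14.6 ± 0.712 CPM in scramble, 3.41 ± 0.212 with si-snaR-A#1, 18.1 ± 0.318 with #2 and 19.7 ± 0.801 with #3 (SD, n = 3 each). MARCKS had 377 ± 17.5, 149 ± 11.5, 495 ± 11.3 and 511 ± 19.5 CPM in the same order. PCK1 and RAP1A also fell with si-snaR-A#1 (log2 fold changes -1.66 and -1.49) and rose with #2 (0.71 and 0.15) and #3 (0.30 and 0.17). The mean of the siRNAs gave ERAP2 a log2 fold change of -0.45 and MARCKS one of -0.17, each called, which stood for none of the 3 siRNAs.

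**Figure D5:**
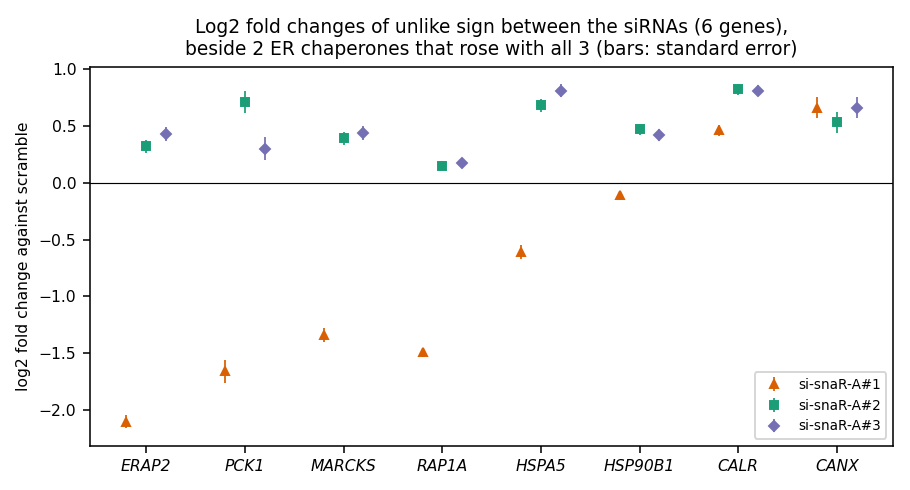
Log2 fold changes against scramble with each siRNA for 6 genes whose sign differed between siRNAs, and for CALR and CANX, which rose with all 3. Points are fitted values and bars their standard errors; si-snaR-A#1 lies below 0 in the first 6 genes, from -2.10 in ERAP2 to -0.11 in HSP90B1, where si-snaR-A#2 and #3 lie above 0.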

How the data were processed

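Expression was measured by RNA-seq in 12 HEK293T libraries, grouped by their GEO titles. The authors trimmed reads with Trim Galore, quantified transcripts with Salmon and deposited the estimated counts of each Ensembl gene, not scaled between libraries; the build named is hg38, and the release of the transcriptome and the use of strand are not given in the sources used here. The counts were rounded. The table held 63541 gene IDs, 58160 of them in GENCODE 44 (GRCh38), which gave symbols, classes and positions, and no column went unused. The filter was edgeR's filterByExpr, which left 21999 and at least 99.98% of each library's counts, scaled by TMM (factors 0.956 to 1.089), and tested in 1 edgeR 4.0.16 model (R 4.3.3) with a coefficient per group and no block. P-values were adjusted over all genes tested and called under 0.05. CPM use TMM library sizes. The 3 siRNA contrasts share their scramble libraries, so counts over them are descriptions.

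The genes, the gene lists and the rule for named genes were chosen with earlier results of these data known. The rule took genes at 1 CPM or more that were called in the mean and with all 3 siRNAs and whose 9 siRNA libraries lay on one side of scramble. It named 12 rises and 12 falls by the smallest of the 3 changes, up to 2 rises and 2 falls of each list, up to 3 lncRNAs each way, of which 2 rises qualified, and 4 genes of unlike direction at 5 CPM or more, 169 genes in all, of which not all are described and some are not reported here. HOX genes, genes with motif matches, REST, SRF, XBP1, ATF6, HSPA5, HSP90B1, the gene families and the 7 motif forms were chosen after values had been seen, and other list members are named from their calls. Alternatives used DESeq2 1.42.0. The scripts were tested on simulated counts.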

Additional observations from a re-analysis of the deposited data

Results flagged for a closer look

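Differences between siRNAs of unlike direction were tested within the same edgeR model without the scramble libraries. The log2 difference of si-snaR-A#1 minus si-snaR-A#2 was -2.41 for ERAP2, -2.37 for PCK1, -1.73 for MARCKS, -1.63 for RAP1A, -1.29 for HSPA5 and -0.58 for HSP90B1. Against si-snaR-A#3 it was -2.53, -1.96, -1.78, -1.66, -1.42 and -0.54 in the same order. These genes stood out because their effects against the same scramble libraries differed between siRNAs, with edgeR adjusted p of 1.5e-10 and 1e-10 for ERAP2 and of 4.3e-07 and 6.9e-07 for HSP90B1. Groups of 3 libraries are too small for a check of single outlying libraries.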

How the results depend on the processing

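With the 9 siRNA libraries as 1 group the mean called 1561 genes, 977 higher and 584 lower. With a log2 fold change of at least 0.5 in size demanded too, it called 1414, 453 higher and 961 lower, and the genes moving with all 3 siRNAs numbered 272, 119 higher and 153 lower. Under the other alternatives these counts stayed within 1.5 times: the mean called between 6546 and 7721 genes and the same-direction count lay between 1554 and 1977. With single libraries left out the counts were 5438 to 7606 and 1399 to 2020, and 76.3% to 95.3% of the 1761 genes kept their call. Of these, 89.3% kept it with upper quartile scaling and 96.9% with DESeq2. Lists with more rises than falls numbered 38 to 46 in place of 42. The counts within lists were less stable: 75 of 660 list counts under another scaling, filter, test or the block, 25 of them with upper quartile scaling, moved by more than 1.5 times, for example DNA repair from 0 to 4 falls. The median log2 fold change of all genes lay between -0.069 and -0.007. Of the 169 genes named by the rule, 146 (without scramble replicate 1) to 166 kept their call on a shared direction, which for 4 of them is that there was none. All 165 genes named by the rule for a shared direction kept their sign and their call in the mean under the alternatives checked, 2970 values in all. These were the other scalings, filters, DESeq2, the replicate block and single libraries left out. The genes had been picked for that call and for libraries that lay apart, so this is no independent check. The fits with the 9 siRNA libraries as 1 group or with an siRNA left out were not checked for them. Libraries that share a replicate number were not seen to be paired, though weak correlations do not show that no pairing exists. Deviations of same-numbered libraries correlated between -0.0657 and 0.0847, none of 18 over 0.1. The best partner had the same number in 9 of 36 cases. The replicate block gave 6801 calls in the mean and 1660 in the same direction, 1095 higher and 565 lower, and 1043 in place of 1110 of these genes then differed between siRNAs. Of the falls, 61 lay under 1 CPM, where counts were few. How the changes relate to the extent of snaR-A loss was not tested.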

Other observations

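The genes in the table that lie outside GENCODE 44 and so have no symbol, class or position here made up 1308 of the genes tested. Of these 37 (2.83%) were higher and 22 (1.68%) lower with all 3 siRNAs.

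A second form of the RE1 letters, TTCAGCACCNNGGA, which overlaps the first, was near 42 of 15075 protein-coding starts (0.279%), 3 of the 551 genes that fell with all 3 siRNAs (0.544%) and 0 of the 1086 that rose. The cyclic AMP element TGACGTCA was near 5.59% of all starts, 6.17% of those of the rises and 5.63% of those of the falls, and near 9 of 48 in the synaptic vesicle list (18.8%). The TEAD word CATTCCA was near 45.3%, 41.8% and 47.2%. CArG boxes were near 17.4% of the falls, and heat shock elements near 3.99% of them.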
